A study of Homo sapiens with 9 samples.

Results

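The insulin-like growth factor (IGF) genes described here were 10 gene symbols of the expression table, chosen as the ligand IGF2, the receptors IGF1R and IGF2R, the 6 binding proteins IGFBP2 to IGFBP7 and the RNA-binding protein IGF2BP3. They were picked by family name out of 19932 gene symbols and 22295 entries in all, and the choice was made knowing that IGFBP4 was among the largest rises at 7 days. All values that involve the 7-day group are therefore given for these 10 genes as a description, without a p-value, and where the 10 are counted against thresholds applied to all genes, nothing is read from the count. The comparison at 3 days, on which the choice did not rest, was tested.

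IGF ligands signal through the receptor tyrosine kinase IGF1R, which passes the signal through insulin receptor substrates to the PI3K, AKT and mTOR pathway and promotes growth and survival. IGF2R, which also carries mannose 6-phosphate tagged enzymes to lysosomes, binds IGF2 and removes it without such a signal. The secreted IGF binding proteins hold the ligands, prolong their life and keep them from or bring them to the receptor, and proteases release the ligand by cutting them. In glioma, IGFBP2 is known as a marker of high-grade tumours and IGF1R as a growth-promoting receptor.

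The cells were U251, an established human glioblastoma line, infected with lentivirus that carried a short hairpin RNA (shRNA) and an M-cherry marker. The control hairpin, sh-Luci, targets luciferase, which human cells lack, and the other hairpin targets PTBP1, a splicing repressor. RNA was sequenced in 3 groups of 3 libraries, namely sh-Luci-3d and sh-Ptbp1-3d at 3 days post infection and sh-Ptbp1-7d at 7 days. All groups were moved from glioblastoma medium to a neuronal induction medium with N2 and B27, supplements that contain insulin, and with forskolin and dorsomorphin, on day 2, so the 7-day cells spent more days in it. A 7-day sh-Luci library was not analysed here, so time in culture, medium and knockdown cannot be told apart in any comparison with sh-Ptbp1-7d. The labels name 1 hairpin virus per target and do not say whether the libraries of a group came from separate cultures, so p-values measure only the spread between these libraries, which may be technical.

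Values are FPKM, fragments counted per length of transcript and scaled to the size of the library, so levels can be compared between genes. PTBP1 itself was at 110.7, 111.9 and 124.4 FPKM in the sh-Luci-3d libraries, at 66.2, 64.4 and 61.0 in sh-Ptbp1-3d and at 49.7, 50.7 and 51.0 in sh-Ptbp1-7d, and the groups did not overlap. The glioma markers VIM, CD44 and SOX2 were high in all libraries, GFAP lay between 0.109 and 1.15 FPKM, and OLIG2 and CHI3L1 were below 0.1 FPKM throughout. The 8 glioma markers summed to between 4420 and 4840 FPKM at 3 days and to between 1350 and 1480 at 7 days, mostly VIM, and the 9 neuronal markers summed to between 272 and 366 at 3 days and between 164 and 170 at 7 days, mostly TUBB3. Not every neuronal marker followed that sum. MAP2 averaged 20.34 FPKM in sh-Ptbp1-3d and 38.89 in sh-Ptbp1-7d, a rise of 0.94 on the log2 scale (limma, adjusted p = 0.00058). SNAP25 rose by 0.72 without overlap (limma, adjusted p = 0.01773). TUBB3, at -1.42 (limma, adjusted p = 6.914e-07), and GAP43, at -2.34 (limma, adjusted p = 0.004231), fell, and SYT1 and RBFOX3 overlapped. STMN2, DCX and ELAVL4 reached 11.5, 2.14 and 0.39 FPKM in sh-Ptbp1-3d replicate 3 and were below 0.1 in the other libraries. Nor did every glioma marker follow the glioma sum. Between the same groups VIM and CD44 fell, while NES and GFAP overlapped. S100B averaged 0.1149 and 0.7966 FPKM, a rise of 2.08 (limma, adjusted p = 0.002017). SOX2 averaged 124.5 and 144.8 FPKM without overlap, but its difference of 0.22 had an adjusted p of 0.0733 (limma). Of 11 blood and immune markers, 9 were below 0.1 FPKM in all libraries. Among the libraries, sh-Ptbp1-3d replicate 3 stood apart, with 107 symbols at 0.3 FPKM or more there and below 0.1 in the other libraries, against 1 to 6 such symbols in any other library. Transcripts longer than 6000 nucleotides were low against the group mean in sh-Luci-3d replicate 3 and in sh-Ptbp1-7d replicate 3, with median deviations of -0.17 and -0.167 on the log2 scale. The depth of the libraries is unknown here, since only FPKM values were used.

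IGF2, the only ligand among the 10 genes, was at or near 0. Its FPKM was 0.0097, 0 and 0.0167 in sh-Luci-3d, 0, 0 and 0.332 in sh-Ptbp1-3d and 0.0281, 0.00821 and 0 in sh-Ptbp1-7d. The one value above 0.1 came from sh-Ptbp1-3d replicate 3, the library that stood apart, in which IGFBPL1 was also at 1.69 FPKM while listed at 0 in the other 8. IGF2 did not reach the mean of 0.1 FPKM needed for testing, so 9 of the 10 genes were tested. The other ligands were also near 0, with IGF1 between 0 and 0.0693 FPKM and INS, which encodes insulin, listed at 0 in every library.

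The receptors were moderately expressed and lower at 7 days. IGF1R, the signalling receptor, was at 17.2, 15.5 and 15.0 FPKM in sh-Luci-3d, at 15.3, 14.7 and 13.9 in sh-Ptbp1-3d and at 8.63, 8.23 and 6.0 in sh-Ptbp1-7d. All 7-day values lay below all 3-day values, whereas the 2 groups at 3 days overlapped. The 7-day mean of 7.62 ± 1.42 (SD, n = 3) was 52.0% of the sh-Ptbp1-3d mean of 14.65 ± 0.711 and 47.9% of the sh-Luci-3d mean of 15.9 ± 1.13. In bulk RNA, fewer cells that express a gene and less RNA of it per cell cannot be told apart, here and below. IGF2R, the clearance receptor, was at 31.0, 31.4 and 27.0 FPKM in sh-Luci-3d, at 29.5, 30.6 and 28.5 in sh-Ptbp1-3d and at 26.2, 22.8 and 17.0 in sh-Ptbp1-7d. Its 7-day values were also the lowest, but the nearest, 26.2, lay close to the 27.0 of sh-Luci-3d replicate 3. The 7-day mean was 74.5% of that of sh-Ptbp1-3d. IGF1R and IGF2R have the longest transcripts of the 10 genes, 12235 and 14044 nucleotides, and their lowest values came from sh-Ptbp1-7d replicate 3, the 7-day library that was low in long transcripts. Without that library the difference between 7 and 3 days of knockdown was -0.79 for IGF1R and -0.27 for IGF2R on the log2 scale, against -0.95 and -0.44 with it. Whether transcript length played a part was not tested.

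The insulin receptor INSR, which can form hybrid receptors with IGF1R, was expressed at a lower level than IGF1R. It averaged 1.578 ± 0.211 FPKM (SD, n = 3) in sh-Luci-3d, 1.368 ± 0.141 in sh-Ptbp1-3d and 1.879 ± 0.136 in sh-Ptbp1-7d, and its difference of 0.43 between 7 and 3 days missed the threshold of 0.01 (limma, adjusted p = 0.0362). The ratio of IGF1R to INSR within a library ran from 9.1 to 12.1 at 3 days and from 3.46 to 4.35 at 7 days. The ratio of IGF2R to IGF1R ran from 1.8 to 2.08 at 3 days and from 2.76 to 3.03 at 7 days. The related receptor gene INSRR was below 0.1 FPKM in all libraries.

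**Figure D1:**
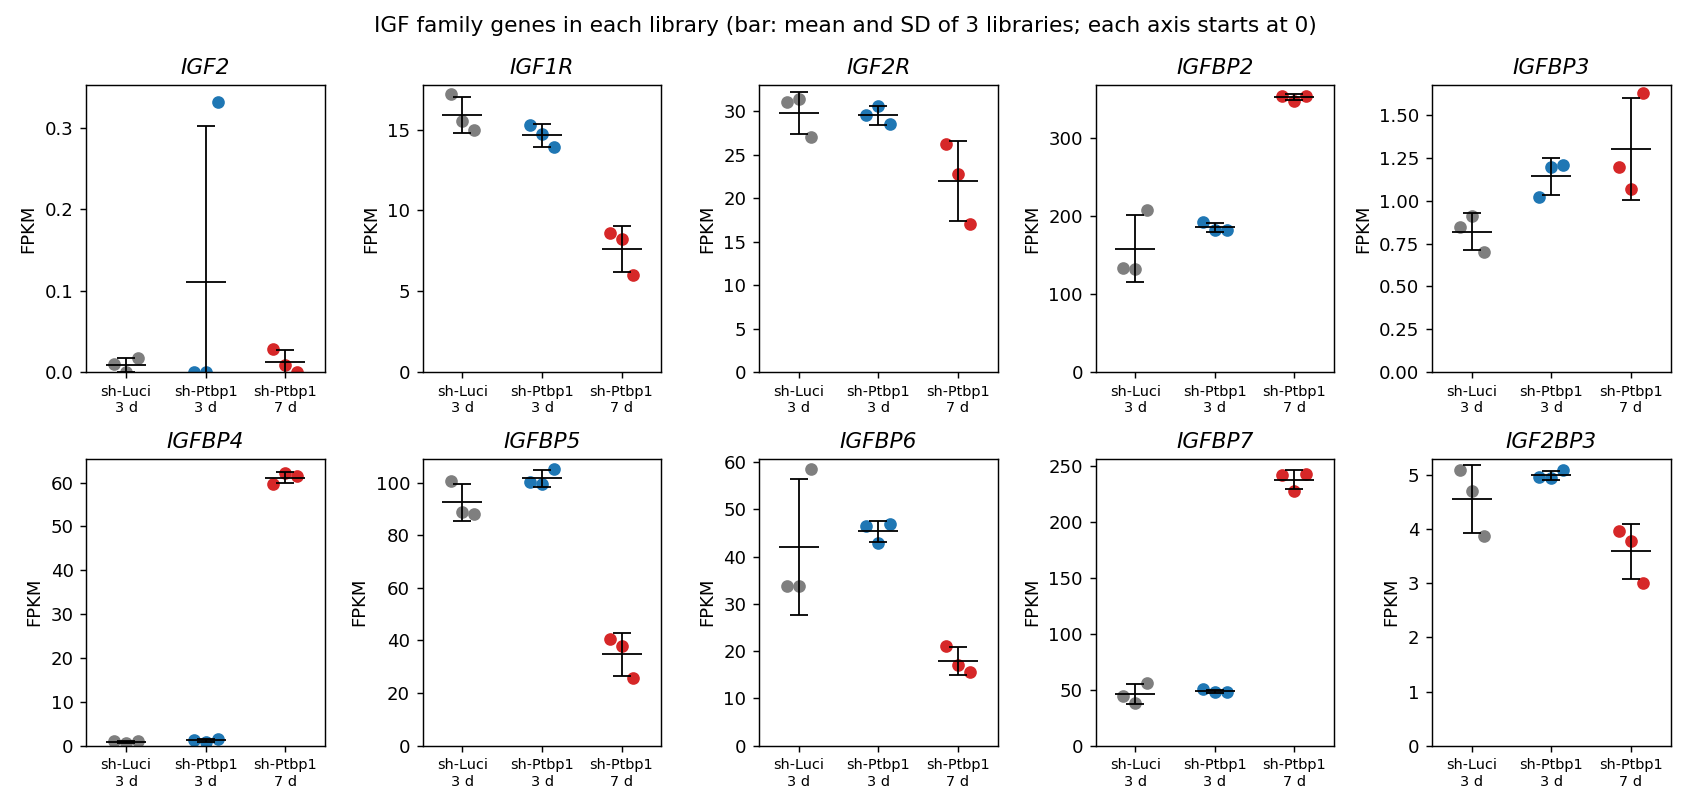
FPKM of the 10 IGF family genes in each of the 9 libraries (points, coloured by group), with the mean and SD of the 3 libraries of a group (black bars), each panel on its own axis from 0. IGFBP4, IGFBP7 and IGFBP2 were highest in sh-Ptbp1-7d, IGF1R, IGFBP5 and IGFBP6 were lowest there, and IGF2 was near 0 apart from 1 library.

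IGFBP4, a binding protein that mostly restrains IGF action and is cut by the protease PAPPA, showed the largest difference of the 10 genes. It was at 0.989, 0.659 and 1.01 FPKM in sh-Luci-3d, at 1.21, 0.886 and 1.62 in sh-Ptbp1-3d and at 59.7, 62.1 and 61.5 in sh-Ptbp1-7d. The 3-day groups overlapped, and the 7-day values lay close together, far above them. The 7-day mean of 61.1 ± 1.27 (SD, n = 3) was 49.3 times that of sh-Ptbp1-3d (1.239 ± 0.37) and 69.0 times that of sh-Luci-3d (0.885 ± 0.196). On the log2(FPKM + 0.1) scale, which shrinks differences of low genes, the difference from sh-Ptbp1-3d was 5.55 (SE 0.203), the fifth largest rise among 13624 gene symbols tested. Its level passed 43.4% of gene symbols in sh-Luci-3d, 45.4% in sh-Ptbp1-3d and 95.1% in sh-Ptbp1-7d.

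The sequences before the transcription start of 4 of these genes are shown because 1 of them, IGFBP4, went from near 1 FPKM to among the abundant transcripts, while IGFBP2 was higher and IGFBP5 and IGF1R lower at 7 days. They come from RefSeq (GRCh38.p14), which had an entry for 8 of the 10 genes, and cover the 250 bases before the start, 5′ to 3′ on the gene's strand. The windows are chr17:40443200-40443449 for IGFBP4 and chr15:98648289-98648538 for IGF1R, both on the plus strand, chr2:216632578-216632827 for IGFBP2 on the plus strand and chr2:216695550-216695799 for IGFBP5 on the minus strand. Capitals mark matches, on either strand, to the motifs searched.
IGFBP4: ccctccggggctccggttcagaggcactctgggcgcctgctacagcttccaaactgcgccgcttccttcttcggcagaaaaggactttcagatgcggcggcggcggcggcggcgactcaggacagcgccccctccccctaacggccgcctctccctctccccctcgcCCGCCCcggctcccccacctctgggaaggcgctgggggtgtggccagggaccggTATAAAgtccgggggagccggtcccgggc
IGFBP2: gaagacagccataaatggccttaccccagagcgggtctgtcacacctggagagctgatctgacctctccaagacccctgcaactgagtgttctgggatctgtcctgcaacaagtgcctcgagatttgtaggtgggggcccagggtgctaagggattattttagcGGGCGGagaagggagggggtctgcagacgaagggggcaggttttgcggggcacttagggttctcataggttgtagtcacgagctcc
IGFBP5: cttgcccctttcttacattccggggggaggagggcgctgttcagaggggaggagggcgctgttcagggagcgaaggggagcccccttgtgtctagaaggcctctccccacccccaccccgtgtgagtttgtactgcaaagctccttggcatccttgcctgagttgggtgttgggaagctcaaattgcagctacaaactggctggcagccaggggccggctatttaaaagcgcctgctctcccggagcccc
IGF1R: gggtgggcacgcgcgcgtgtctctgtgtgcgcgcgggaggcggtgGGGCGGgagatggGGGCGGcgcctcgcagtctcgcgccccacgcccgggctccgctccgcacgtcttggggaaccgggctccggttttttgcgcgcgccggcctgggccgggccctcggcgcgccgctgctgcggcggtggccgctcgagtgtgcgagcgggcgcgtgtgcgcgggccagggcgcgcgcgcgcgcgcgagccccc

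The motifs searched on both strands were the TATA box TATAAA, the GC box GGGCGG, the CCAAT box CCAAT, the E-box CACGTG, the FOXO site GTAAACA, the core of the interferon-stimulated response element and the cAMP response element TGACGTCA with its half-site TGACG, which overlaps it. IGFBP4 was the only one of the 8 windows with TATAAA, 29 bases before the start, a match that 11.1% of 27305 promoters of this length held. It also held 1 GC box, IGFBP2 held 1 and IGF1R held 2, while the IGFBP5 window held no exact match to any of these motifs. Near variants were not searched, so a window without a match may still hold an element of that type. GC boxes were found in 6 of the 8 windows and in 42.3% of all promoters. IGF2R held 3 E-boxes, of which 1 overlaps a TGACG, and IGF2BP3 held 2, against 6.49% of all promoters with any. IGFBP6 held 1 FOXO site (2.98% of all promoters). The RefSeq windows of IGFBP3 and IGFBP6, which are not shown, overlap exons annotated in GENCODE 29, and the FOXO match lies inside the gene as annotated there. None of the 8 held TGACGTCA (1.77%), the interferon-stimulated core (3.07%) or CCAAT (33.0%). The G and C content of the windows shown was 81.2% for IGF1R, 71.6% for IGFBP4, 61.2% for IGFBP5 and 56.8% for IGFBP2.

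IGFBP7, a secreted protein that binds IGFs weakly and insulin more strongly than its relatives do, was also higher at 7 days. It was at 44.1, 38.2 and 56.2 FPKM in sh-Luci-3d, at 50.4, 47.7 and 47.8 in sh-Ptbp1-3d and at 242.0, 227.9 and 243.1 in sh-Ptbp1-7d. The 7-day mean of 237.7 ± 8.5 (SD, n = 3) was 4.89 times that of sh-Ptbp1-3d, 48.62 ± 1.56, and no 7-day library came near a 3-day one. IGFBP2, the binding protein linked to high-grade glioma, was the most abundant of the 10 genes in all groups. It was at 133.5, 132.7 and 207.5 FPKM in sh-Luci-3d, at 191.8, 182.2 and 182.5 in sh-Ptbp1-3d and at 354.5, 348.0 and 354.5 in sh-Ptbp1-7d. The 7-day mean of 352.3 ± 3.76 was 1.9 times that of sh-Ptbp1-3d and 2.23 times that of sh-Luci-3d. The value of sh-Luci-3d replicate 3 stood apart from its group and above all 3 sh-Ptbp1-3d values, so the 3-day groups overlapped through that library.

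IGFBP5 and IGFBP6 were lower at 7 days. IGFBP5, which binds to the extracellular matrix and can restrain or enhance IGF action, was at 100.7, 88.8 and 88.2 FPKM in sh-Luci-3d, at 100.3, 99.3 and 105.1 in sh-Ptbp1-3d and at 40.5, 37.9 and 25.6 in sh-Ptbp1-7d. The 7-day mean of 34.68 ± 8.0 (SD, n = 3) was 34.1% of that of sh-Ptbp1-3d. The lowest value again came from replicate 3, which was low in long transcripts, and the transcript of IGFBP5 has 6215 nucleotides. IGFBP6, which prefers IGF2 over IGF1, was at 33.8, 33.7 and 58.5 FPKM in sh-Luci-3d, at 46.4, 42.8 and 46.8 in sh-Ptbp1-3d and at 21.1, 17.0 and 15.5 in sh-Ptbp1-7d. The 7-day mean of 17.89 ± 2.93 was 39.5% of that of sh-Ptbp1-3d, with no overlap. Its lowest 7-day value also came from replicate 3, and its transcript, of 1177 nucleotides, is the shortest of the 10 genes. As for IGFBP2 and IGFBP7, its highest 3-day value belonged to sh-Luci-3d replicate 3.

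IGFBP3, the main carrier of IGFs in blood plasma, was barely expressed, at 0.849, 0.91 and 0.70 FPKM in sh-Luci-3d, at 1.02, 1.20 and 1.21 in sh-Ptbp1-3d and at 1.20, 1.07 and 1.63 in sh-Ptbp1-7d. The sh-Luci-3d values lay below all others, while the sh-Ptbp1 groups overlapped. IGF2BP3, a fetal RNA-binding protein named for its binding to IGF2 mRNA, was at 5.10, 4.71 and 3.87 FPKM in sh-Luci-3d, at 4.96, 4.94 and 5.09 in sh-Ptbp1-3d and at 3.96, 3.79 and 3.01 in sh-Ptbp1-7d. Its 7-day mean was 71.8% of that of sh-Ptbp1-3d, but the 7-day range reached into that of sh-Luci-3d. Of its relatives, IGF2BP2 averaged 11.82 ± 0.393 FPKM (SD, n = 3) at 3 days of knockdown and 14.88 ± 1.08 at 7 days, and IGF2BP1 was below 0.1 FPKM in all libraries.

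The transcripts of the 6 binding proteins were also summed. The sum was 313.9, 295.0 and 412.2 FPKM in sh-Luci-3d, 391.1, 374.0 and 385.0 in sh-Ptbp1-3d and 719.1, 694.0 and 701.9 in sh-Ptbp1-7d. Its 7-day mean of 705.0 ± 12.8 (SD, n = 3) was 1.84 times that of sh-Ptbp1-3d (383.4 ± 8.65) and 2.07 times that of sh-Luci-3d (340.4 ± 62.9). The share of IGFBP2 in the sum moved little, from 48.38% ± 0.864 in sh-Ptbp1-3d to 49.98% ± 0.621 in sh-Ptbp1-7d, whereas the make-up of the rest differed. IGFBP7 made up 12.68% of the sum in sh-Ptbp1-3d and 33.71% in sh-Ptbp1-7d, and IGFBP4 made up 0.3225% and 8.671%. IGFBP5 made up 26.49% and 4.915%, and IGFBP6 made up 11.82% and 2.533%. The ratio of IGFBP2 to IGFBP5 within a library ran from 1.33 to 2.35 at 3 days and from 8.74 to 13.9 at 7 days, where the highest value came from replicate 3.

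**Figure D2:**
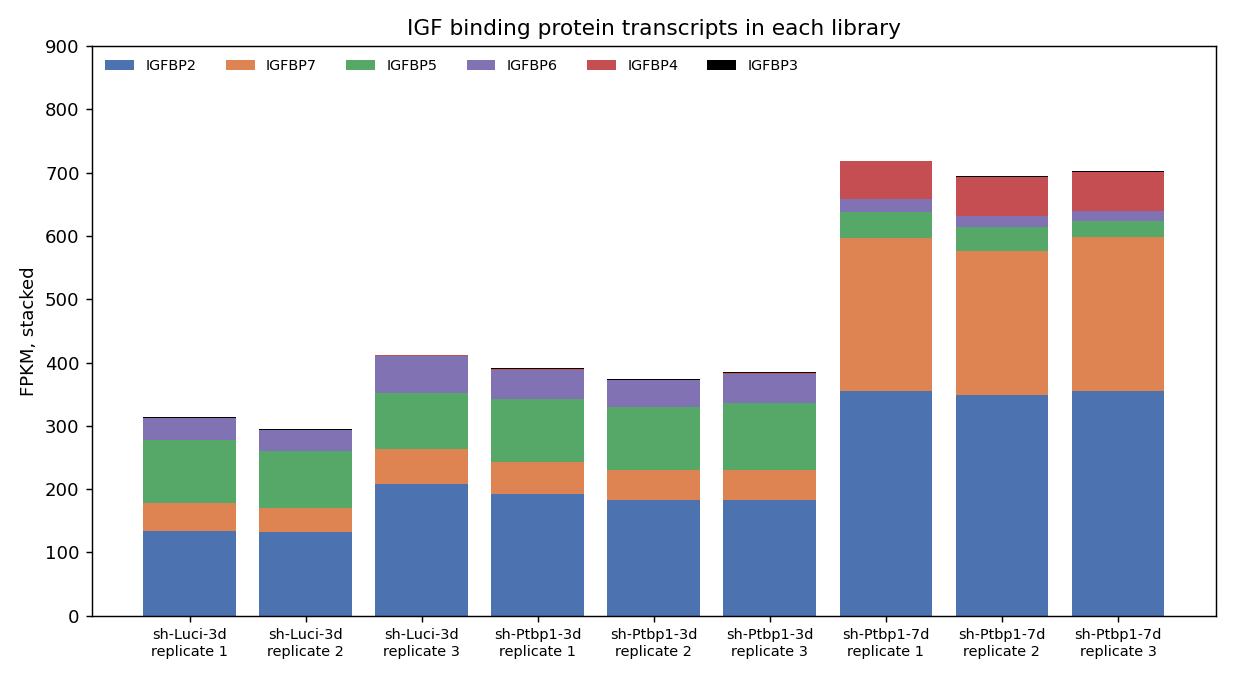
Stacked FPKM of IGFBP2 to IGFBP7 in each of the 9 libraries (one bar per library, one colour per gene). The 7-day bars reach between 694.0 and 719.1 FPKM against 295.0 to 412.2 at 3 days, with larger IGFBP7 and IGFBP4 segments and smaller IGFBP5 and IGFBP6 segments.

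By level, the order in sh-Luci-3d was IGFBP2, IGFBP5, IGFBP7, IGFBP6, IGF2R, IGF1R, IGF2BP3, IGFBP4, IGFBP3 and IGF2. Of the neighbours in this order, IGFBP7 and IGFBP6 overlapped between libraries, as did IGFBP4 and IGFBP3. In sh-Ptbp1-3d the order was the same and only IGFBP4 and IGFBP3 overlapped. In sh-Ptbp1-7d the order was IGFBP2, IGFBP7, IGFBP4, IGFBP5, IGF2R, IGFBP6, IGF1R, IGF2BP3, IGFBP3 and IGF2. There IGFBP5, IGF2R and IGFBP6 overlapped from each to the next, and IGFBP4 stood apart from both of its neighbours.

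The comparison of sh-Ptbp1-3d with sh-Luci-3d asks what knockdown of PTBP1 changed at 3 days. None of the 9 genes tested passed a fold change above 2 with a false discovery rate (FDR) below 0.05, against 0.0129% of the 15551 genes tested, that is 2 genes. At FDR below 0.05 alone, 5 genes passed (0.0322%), none of them an IGF gene, and 1126 of all genes (7.24%) had an unadjusted p below 0.05. PTBP1 itself, at -0.85 (limma, adjusted p = 0.003139), passed the FDR but not the fold change. The authors reported more genes past the same thresholds in this comparison, so few calls here do not mean that little changed. The adjusted p of the 9 genes, from limma over all genes, ran from 0.682 to 0.994. IGFBP3, at 0.44 (SE 0.194, adjusted p = 0.682), and IGFBP4, at 0.43 (SE 0.203, adjusted p = 0.709), had the largest differences on the log2 scale. IGFBP2 differed by 0.26 (SE 0.146, adjusted p = 0.749) and IGF1R by -0.12 (SE 0.131, adjusted p = 0.881). IGFBP5, IGFBP6, IGFBP7 and IGF2BP3 differed by 0.09 to 0.16 and IGF2R by -0.01. The groups did not overlap for 1 of the 9 genes, IGFBP3, against 10.8% of all genes tested. An exact permutation test of 3 against 3 libraries could not give a two-sided p below 0.1.

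The result for IGFBP2 at 3 days rested on 1 library. Without sh-Luci-3d replicate 3, the difference was 0.48 (limma, adjusted p = 0.00448), past the FDR but short of a fold change of 2, and without sh-Ptbp1-3d replicate 3 as well it was 0.49 (adjusted p = 0.0130). Over all alternatives the adjusted p for IGFBP2 ran from 0.00448 to 1. Without sh-Luci-3d replicate 3, IGFBP6 differed by 0.42 (adjusted p = 0.0603) and IGFBP7 by 0.24 (adjusted p = 0.0767). The sign for IGF2R and for IGFBP7 at 3 days was not stable when single libraries were left out.

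From 3 to 7 days of knockdown (sh-Ptbp1-7d minus sh-Ptbp1-3d), 2 of the 9 genes were past a fold change of 2 with FDR below 0.01 upward, IGFBP4 and IGFBP7, where 8.31% of all genes tested were. IGFBP5 and IGFBP6 were past it downward, where 5.9% of all genes were, and 14.2% of all genes were past it in either direction. The differences on the log2 scale were 5.55 for IGFBP4, 2.29 (SE 0.119) for IGFBP7, 0.93 (SE 0.146) for IGFBP2, -0.95 (SE 0.131) for IGF1R, -1.35 (SE 0.194) for IGFBP6 and -1.58 (SE 0.147) for IGFBP5. IGF1R and IGFBP2 were thus just short of a fold change of 2, and IGF1R was past it, at -1.05 and -1.01, without sh-Ptbp1-7d replicate 1 or 2. IGF2R, at -0.44 (SE 0.137), IGF2BP3, at -0.48 (SE 0.138), and IGFBP3, at 0.16 (SE 0.194), differed less, and the sign for IGFBP3 turned under other settings, from -0.05 to 0.28, also without sh-Ptbp1-7d replicate 3. The groups did not overlap for 8 of the 9 genes and for 62.3% of all genes tested. The median difference of the 9 genes was -0.44, and that of all genes was 0.09. Nothing is read from these counts or from those against sh-Luci-3d, since the choice of genes used the 7-day values.

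Against sh-Luci-3d, which shares its 7-day libraries with the comparison above, IGFBP4, IGFBP7 and IGFBP2 were past the same thresholds upward, where 8.93% of all genes were, and IGFBP5, IGFBP6 and IGF1R downward, where 5.68% were, in all 6 of 9 genes against 14.6% of all genes. The differences were 5.98 for IGFBP4, 2.38 for IGFBP7, 1.19 for IGFBP2, -1.07 for IGF1R, -1.19 for IGFBP6 and -1.44 for IGFBP5. IGFBP3 was at 0.59, IGF2R at -0.46 and IGF2BP3 at -0.34. The groups did not overlap for 8 of the 9 genes, IGF2BP3 being the exception, and for 55.9% of all genes. When single libraries were left out, IGF1R, at -0.91, was short of a fold change of 2 without sh-Ptbp1-7d replicate 3. IGFBP6, at -0.92, was short of it without sh-Luci-3d replicate 3. Over all alternatives, other settings included, IGF1R was past both thresholds in 18 of 22 and IGFBP6 in 20 of 22.

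**Figure D3:**
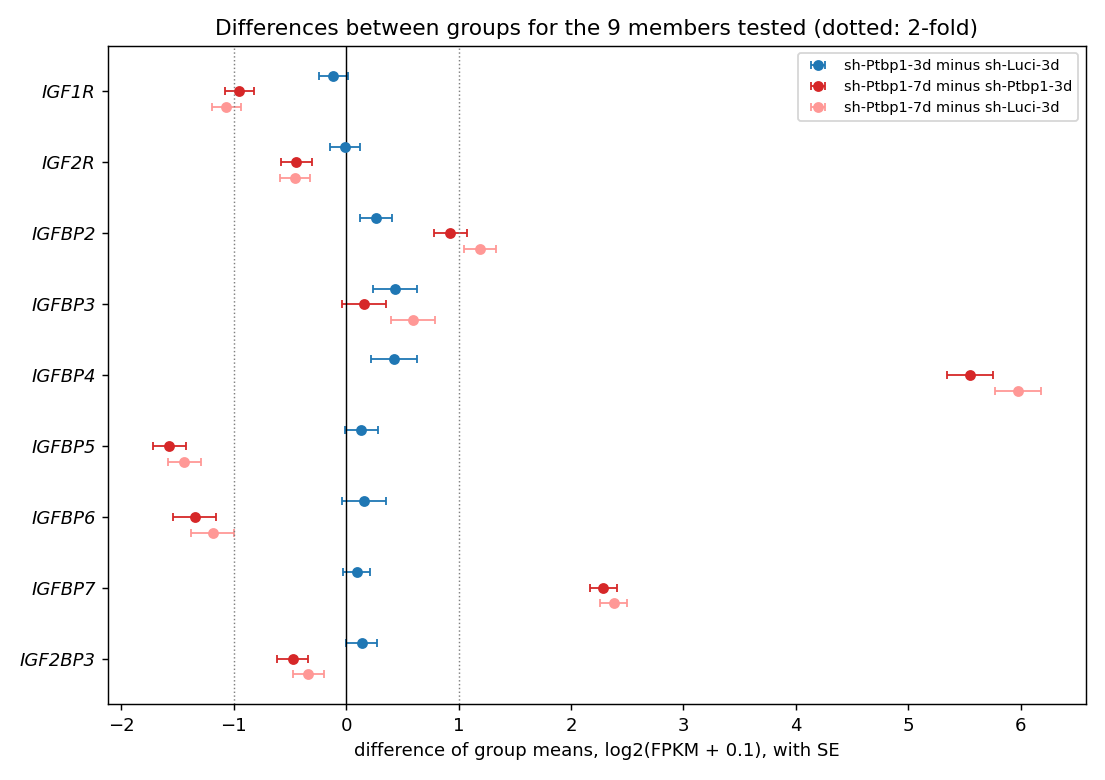
Differences between group means on the log2(FPKM + 0.1) scale with their SE for the 9 IGF genes tested, in 3 comparisons that share libraries (colours); dotted lines mark a fold change of 2. The 3-day differences lie between -0.12 and 0.44, and the 7-day differences reach 5.98 for IGFBP4 and -1.58 for IGFBP5, while the sign for IGFBP3 between 7 and 3 days, and for IGF2R and IGFBP7 at 3 days, turned under some settings.

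Positions were read from GENCODE 29 (GRCh38). IGFBP2 (chr2:216632828-216664436, plus strand) and IGFBP5 (chr2:216672105-216695525, minus strand) are neighbours whose ends face each other 7668 bases apart, and IGFBP2 was higher and IGFBP5 lower at 7 days. IGFBP4 (chr17:40443461-40457731, plus strand) lies between TOP2A, 25510 bases away, and TNS4. TOP2A, a topoisomerase of dividing cells, averaged 54.5 FPKM in sh-Ptbp1-3d and 32.9 in sh-Ptbp1-7d and fell by 0.73 on the log2 scale, short of a fold change of 2 (limma, adjusted p = 0.00017), and TNS4 was near 0. IGFBP3 lies 18576 bases from IGFBP1, which was listed at 0 in every library. IGFBP7 overlaps POLR2B and IGFBP7-AS1 on the other strand, IGF2BP3 overlaps MALSU1 and IGF2 overlaps IGF2-AS on the other strand and INS-IGF2 on its own. Whether the counting used strand is not given in the sources used here, so reads of such partners cannot be told apart.

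Another 87 genes of the pathway or set beside it, none of them among the 10, were taken as lists, of which 64 were expressed enough to test. The lists set beside it held IGFBP-related proteins, genes around IGF2, mannose 6-phosphate sorting genes and the LIN28 and HMGA genes. The lists were drawn up with earlier results of these data known. Their counts and shares against all genes are therefore a description, and the p-values of genes named from them carry the same limit. At 3 days none was past a fold change of 2 with FDR below 0.05 (limma), with a lowest adjusted p of 0.524. From 3 to 7 days of knockdown, 7 rose and 9 fell past both a fold change of 2 and an FDR of 0.01, 25.0% of the 64 against 14.2% of all genes, and their median difference was -0.03 against 0.09 for all genes. At FDR below 0.01 alone, where 35.8% of all genes passed, 14 were higher and 17 lower. Against sh-Luci-3d, 6 rose and 9 fell past both thresholds, 23.4% against 14.6% of all genes.

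Of the 16 genes, 6 belonged to the list of enzymes that cut the binding proteins and their inhibitors, in which 10 were tested, 4 rose and 2 fell past both thresholds from 3 to 7 days of knockdown, 60.0% against 14.2% of all genes (8.31% higher and 5.9% lower). MMP2, a matrix metalloproteinase that can cut IGFBP3 and IGFBP5, measured 24.5, 24.3 and 26.1 FPKM at 3 days of knockdown and 128.7, 126.4 and 128.0 at 7 days, a rise of 2.35 (SE 0.068, adjusted p = 3.213e-09). ADAM28 rose from 0.2505 ± 0.0714 (SD, n = 3) to 1.385 ± 0.833 FPKM, by 1.97 (limma, adjusted p = 0.002067), and it was past both thresholds in 18 of 21 alternatives. ADAM12, which can cut IGFBP3 and IGFBP5, measured 17.0, 17.0 and 15.2 FPKM at 3 days of knockdown and 5.04, 4.59 and 3.26 at 7 days, a difference of -1.93 (SE 0.1507, adjusted p = 2.449e-06). The other genes of the list past both thresholds, outside the naming rule and named after their values were seen, were PAPPA, STC1 and ADAM9. PAPPA, the protease of IGFBP4, rose from 1.653 ± 0.0665 to 5.393 ± 1.2 FPKM (limma, adjusted p = 1.895e-05), and STC1, a secreted inhibitor of PAPPA, rose from 50.19 ± 2.53 to 176.6 ± 1.07 FPKM (adjusted p = 2.609e-07). The transcripts of IGFBP4, PAPPA and STC1 were higher at 7 days, by 5.55, 1.62 and 1.81 on the log2 scale, but they were set side by side after their values were seen. STC2, of the same list, differed by 0.15 (limma, adjusted p = 0.5443) and did not pass the FDR. ADAM9, which can cut IGFBP5, fell from 84.96 ± 5.44 to 34.94 ± 1.21 FPKM (adjusted p = 6.963e-06).

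Downstream of the receptors, 3 of 12 adaptors and regulators tested were past both thresholds, 25.0% against 14.2% of all genes, and at FDR below 0.01 alone 2 were higher and 4 lower. GAB1, a docking protein, rose by 1.06 (SE 0.2424, limma adjusted p = 0.004129), but was past both thresholds in only 14 of 22 alternatives. PTPN11, the phosphatase SHP2, fell from 28.29 ± 0.76 to 13.46 ± 2.1 FPKM (SD, n = 3), and SOCS2, a feedback inhibitor of growth hormone signalling, measured 61.2, 66.4 and 65.0 FPKM at 3 days of knockdown and 20.4, 18.5 and 17.2 at 7 days, a difference of -1.78 (limma, adjusted p = 4.608e-08). The substrate IRS1, at 0.03, did not pass the test, and IRS2, at -0.41 (adjusted p = 0.007263), passed the FDR but not the fold change. Of 22 genes of the PI3K, AKT and mTOR pathway, all tested, 2 fell and 0 rose past both thresholds, 9.09% against 14.2% of all genes, and at FDR below 0.01 alone 4 were higher and 5 lower. FOXO3, a transcription factor that AKT keeps out of the nucleus, fell from 28.85 ± 1.94 to 11.44 ± 1.5 FPKM (adjusted p = 2.357e-06), and PIK3CA, a catalytic subunit of PI3K, fell from 10.94 ± 0.146 to 5.077 ± 0.519 FPKM (adjusted p = 5.928e-05). AKT1, at -0.05, and MTOR, at 0.05, did not pass the test.

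**Figure D4:**
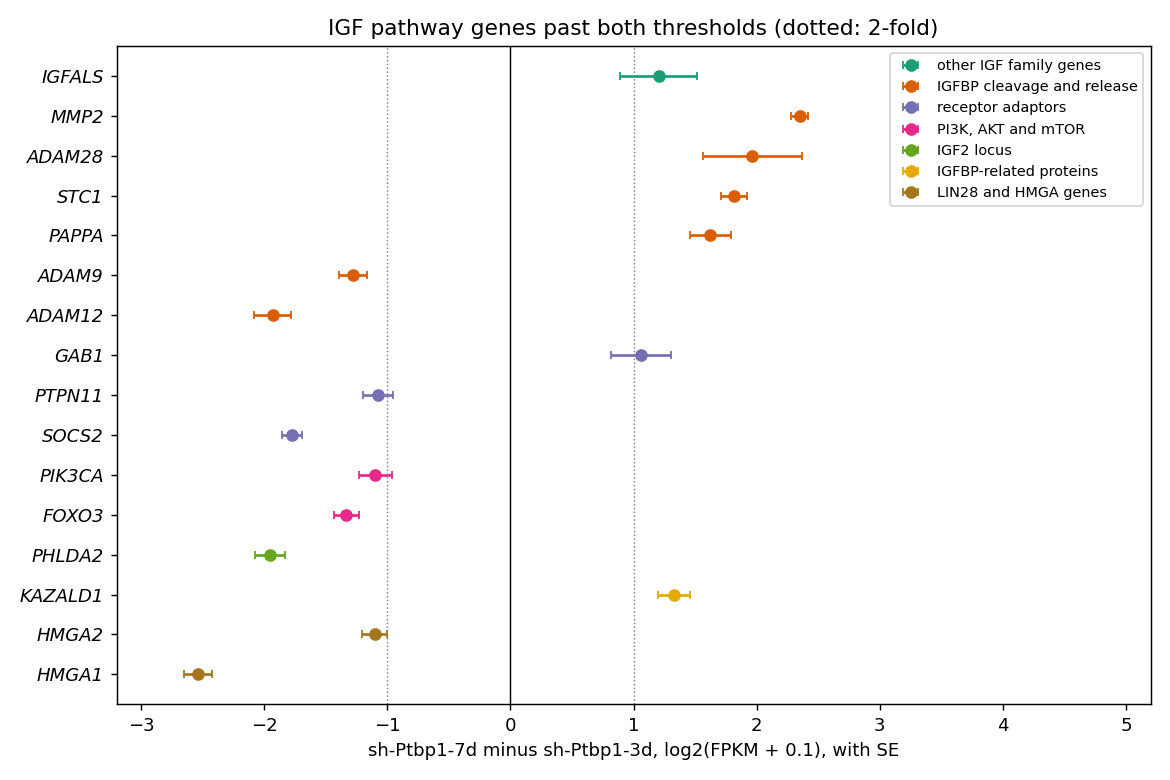
Differences between 7 and 3 days of knockdown (sh-Ptbp1-7d minus sh-Ptbp1-3d) on the log2(FPKM + 0.1) scale with their SE for the 16 genes of the pathway and related lists past both thresholds, coloured by list. MMP2, at 2.35, rose most and HMGA1, at -2.54 and from the list of LIN28 and HMGA genes, fell most, and genes of the list of cleavage and release lie on both sides.

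Among smaller lists, 1 of the 4 other IGF family genes tested was past both thresholds (25.0%). The share of all genes, here and for the lists below, was 14.2%. IGFALS, which encodes the acid-labile subunit that stabilises IGF complexes in blood, measured 0.136, 0.0664 and 0.107 FPKM at 3 days of knockdown and 0.467, 0.235 and 0.424 at 7 days, a rise of 1.21 (limma, adjusted p = 0.008518), but it was past both thresholds in only 6 of 21 alternatives. Of 5 IGFBP-related proteins tested, 1 was past both thresholds (20.0%). KAZALD1 rose from 2.102 ± 0.0917 to 5.42 ± 0.227 FPKM (SD, n = 3, limma, adjusted p = 1.377e-05). HMGA1 and HMGA2, chromatin proteins of fetal and tumour cells, both fell, HMGA1 from 77.31 ± 2.97 to 13.22 ± 0.848 FPKM (adjusted p = 4.456e-08) and HMGA2 from 7.188 ± 0.503 to 3.285 ± 0.0262 FPKM (adjusted p = 7.848e-06). Of the 2 genes tested around IGF2, 1 was past both thresholds (50.0%). PHLDA2, an imprinted growth-restraining gene, fell from 73.23 ± 3.79 to 18.9 ± 2.08 FPKM (limma, adjusted p = 5.197e-07). None of the 7 mannose 6-phosphate sorting genes that work beside IGF2R was past both thresholds (0.0%), and nothing is read from so few genes. M6PR, the smaller mannose 6-phosphate receptor, averaged 32.42 ± 1.48 FPKM in sh-Ptbp1-3d and 31.0 ± 1.04 in sh-Ptbp1-7d.

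The pattern of IGFBP4 over the 9 libraries was most like those of SMPD1 (Pearson's r = 0.9983), LBH (0.998), RCAN1 (0.9975), CACNG4 (0.9971) and MMP2 (0.9969), among 11331 gene symbols with a mean of at least 1 FPKM, all r on the log2 scale. LBH averaged 1.37 FPKM in sh-Ptbp1-3d and 15.7 in sh-Ptbp1-7d, and SMPD1, the acid sphingomyelinase, averaged 25.0 and 66.4. The pattern of IGFBP5, the gene of the lowest 7-day difference, was most like those of LMO7 (0.9977), ADD2 (0.9976), IGSF3 (0.9954), KCTD12 (0.9938) and ENC1 (0.9928). These r are a description of 9 points that share their libraries and group structure.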

How the data were processed

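RNA of 9 libraries was measured by sequencing. The authors deposited FPKM values per gene in 1 table, aligned with HISAT2 to GRCh38 per the submitters' processing notes. The counting program, annotation and strand setting are not given in the sources used here. The deposited coordinates of assembled loci were used to look for loci without a gene symbol near the IGF genes, and none lay within 10000 bases. Columns were matched to groups by the sample titles. Genes whose mean over all libraries reached 0.1 FPKM (15551 of 22295) were compared as log2(FPKM + 0.1) with limma 3.58.1 in R 4.3.3, using 1 model of all 9 libraries with 6 residual degrees of freedom, an intensity trend and Benjamini-Hochberg adjustment over all genes. The thresholds were a fold change of 2 with FDR below 0.05 at 3 days and below 0.01 in the 7-day comparisons.

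The genes and lists were chosen with earlier results of these data known. Named pathway genes were up to 3 per list with the largest difference among those past both thresholds; other IGF family genes are given by level, and genes of like pattern are the 5 of highest r. PAPPA, STC1, STC2, ADAM9, IRS1, IRS2, AKT1, MTOR, M6PR and TOP2A fall outside these rules. H19, IGF2-AS and KCNQ1OT1 were not analysed here. The alternatives were the pseudocount, filter, scaling, features, samples fitted, replicate block and each library left out; a GC and length correction and leaving out 2 libraries together were chosen after seeing the data. On data simulated for 7 against 3 days of knockdown over 15551 genes, 94 of 106 genes changed by 2 and 86 of 94 changed by 3 on the log2 scale were recovered, with 0 false calls.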

Additional observations from a re-analysis of the deposited data

How the results depend on the processing

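The number of all genes past both thresholds at 3 days, 2, was 1 with a pseudocount of 0.01, a minimum mean of 1 FPKM, TPM, median-ratio scaling, quantile normalization or no intensity trend, 0 with only the 2 groups compared, 4 with the GC and length correction and 43 without sh-Luci-3d replicate 3 and sh-Ptbp1-3d replicate 3. Leaving out 1 library at a time gave 0 to 59, the 59 without sh-Luci-3d replicate 3. With a pseudocount of 1, the counts fell from 2211 to 1255 for 7 against 3 days of knockdown and from 2271 to 1269 against sh-Luci-3d. Quantile normalization split these calls into 1039 higher and 1081 lower, against 1293 and 918, and into 1092 and 1121 against sh-Luci-3d, instead of 1388 and 883; TPM moved the median of all genes between 7 and 3 days to 0.19. With the replicate block, 0, 2140 and 2217 genes were past both thresholds in the 3 comparisons, and 4 and 6 IGF genes in those with sh-Ptbp1-7d, as without it. With the GC and length correction, 4 and 5 IGF genes were past both thresholds in the comparisons with sh-Ptbp1-7d. Of the 13328 genes fitted with that correction, 1911 and 1947 were. Replicate numbers were not treated as pairs in the main fit. The deviations of same-numbered libraries from their group means had r between -0.032 and 0.051. Not every library correlated best with its own number. Whether same-numbered libraries shared a culture or preparation is not given by the labels and was not tested. The count of IGF genes was 0 at 3 days under every alternative, 4 to 6 of 9 for 7 against 3 days of knockdown and 5 to 6 against sh-Luci-3d; IGF1R was past both thresholds in 4 of 22 alternatives in the former and 18 of 22 in the latter, IGFBP2 in 2 of 22 in the former, and IGFBP6 in 20 of 22 in the latter. At 3 days, IGF2R was at 0.0366 with the GC and length correction and between -0.0807 and 0.0286 with libraries left out, and IGFBP7 between -0.0354 and 0.2556. The cause was not tested. Depth is unknown, so no counting error can be given for IGF2, IGFBP3 or IGFBP4 at 3 days.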
